A study of Homo sapiens with 8 samples.

Results

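The genes described here are 9 markers of the pluripotent state: POU5F1, NANOG, SOX2, SALL4, L1TD1, DPPA4, TDGF1, ZFP42 and TERT. They were taken by symbol from a table of 30386 genes, and all 9 are listed in it. The table holds 2 groups, named iEC (endothelial cells) and iREC (retinal endothelial cells), which were both differentiated from WTC-TJP1, an induced pluripotent stem cell line of human origin. Each group has 4 samples, which carry the letters C, D, E and F, and all were analysed at passage 1. The labels call the cells of both groups endothelial cells derived from induced pluripotent stem cells. The steps that set the iREC apart are not given in the sources used here. All samples share 1 line, so nothing here compares lines. Undifferentiated cells of the line were not analysed here, so no level below can be set against that of a pluripotent culture.

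Pluripotent stem cells are held in their state by the transcription factors POU5F1 (also called OCT4), SOX2 and NANOG, which bind many of the same enhancers, their own included, and are shut off as cells commit to a lineage. Other genes of that state are used as more sensitive markers of it. ZFP42 (REX1) and SALL4 encode zinc finger proteins, DPPA4 encodes a chromatin protein that works in a pair with DPPA2, and L1TD1 encodes an RNA-binding protein derived from a LINE-1 element. TDGF1 (Cripto) encodes a co-receptor for the ligand Nodal, and TERT encodes the catalytic subunit of telomerase. RNA of such genes in a differentiated culture is read in the field as a sign of residual stem cells or of incomplete silencing. In a bulk sample, fewer cells of a type and less RNA per cell cannot be told apart.

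The DNA just upstream of 4 of these genes is shown because they span the outcomes described below. ZFP42 and DPPA4 passed the test in opposite directions, L1TD1 had reads in every iREC sample, and NANOG was near 0. RefSeq (GRCh38.p14) gave promoters for 7 of the 9 members, TDGF1 under its current symbol CRIPTO; POU5F1 and SALL4 were not matched. The stretches are chr4:187995521-187995770 (plus strand) for ZFP42, chr3:109337573-109337796 (minus strand) for DPPA4, chr1:62194599-62194830 (plus strand) for L1TD1 and chr12:7789152-7789395 (plus strand) for NANOG. The NANOG stretch precedes the RefSeq start and lies inside the longer GENCODE gene model. Each stretch holds 0 bases of the gene's exons in GENCODE, and each is written from 5′ to 3′. Capitals mark matches, on either strand, to the POU letters ATGCAAA, the SOX letters ACAATG or ACAAAG, and the GC box GGGCGG.
ZFP42: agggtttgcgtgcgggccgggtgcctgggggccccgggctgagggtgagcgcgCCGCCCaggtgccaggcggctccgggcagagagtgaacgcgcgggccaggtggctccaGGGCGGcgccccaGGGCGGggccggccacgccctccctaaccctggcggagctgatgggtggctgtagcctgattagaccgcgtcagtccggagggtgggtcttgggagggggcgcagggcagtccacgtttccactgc
DPPA4: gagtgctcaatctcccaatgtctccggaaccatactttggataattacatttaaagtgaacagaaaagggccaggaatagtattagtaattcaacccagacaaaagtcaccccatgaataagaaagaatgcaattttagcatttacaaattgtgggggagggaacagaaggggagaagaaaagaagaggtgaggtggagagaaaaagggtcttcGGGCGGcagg
L1TD1: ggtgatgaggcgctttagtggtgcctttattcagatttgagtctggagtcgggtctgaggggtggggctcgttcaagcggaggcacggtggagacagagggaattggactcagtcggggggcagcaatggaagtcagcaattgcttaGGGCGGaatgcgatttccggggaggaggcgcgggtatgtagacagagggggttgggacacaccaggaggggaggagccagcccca
NANOG: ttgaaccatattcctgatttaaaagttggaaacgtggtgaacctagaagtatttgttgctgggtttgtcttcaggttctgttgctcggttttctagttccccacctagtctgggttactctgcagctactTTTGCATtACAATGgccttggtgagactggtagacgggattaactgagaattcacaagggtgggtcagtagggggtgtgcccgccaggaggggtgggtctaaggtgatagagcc
The NANOG stretch holds the POU letters 120 bases upstream of the RefSeq start and the SOX letters ACAATG 112 bases upstream, with a single base between them. Over 250 bases upstream of the start, the POU letters occur in 3.94% of 35116 RefSeq promoters, ACAATG in 9.29% and ACAAAG in 13.7%. ZFP42 holds 3 GC boxes, which start 197, 139 and 126 bases upstream, while DPPA4 and L1TD1 hold 1 each. A GC box occurs in 42.6% of promoters. The ZFP42 stretch has 23 CpG dinucleotides and that of DPPA4 has 3, where the median over all promoters is 11. These matches describe letters only.

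Total counts ran from 13739364 to 16971865 per sample, so the detection floor of 3 counts was worth 0.178 to 0.215 CPM (the count divided by the TMM-scaled library size and multiplied by 1e6). Molecular identifiers are not mentioned in the labels, and floors and intervals therefore cover counting error alone. All 10 endothelial markers checked (PECAM1, CDH5, KDR, TEK, TIE1, ERG, VWF, CLDN5, ESAM and EGFL7) were above the floor in every sample, with a summed level of 7325 to 9420 CPM in iEC and 4306 to 9588 CPM in iREC. The lowest of these sums was in iREC F. The same sample had the highest sum of 8 epithelial markers, 4933 CPM against 303 to 1124 CPM in the other iREC samples and 392 to 1177 CPM in iEC. It also had the highest sum of 9 mesenchymal markers, 4295 CPM against 571 to 1181 CPM in the other iREC samples and 100 to 419 CPM in iEC. Genes reaching 10 counts numbered 16559 in iREC E and 14282 to 15536 in the remaining 7 samples.

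The 9 genes fell into 3 levels. DPPA4, SALL4 and ZFP42 were above the floor in all 8 samples. POU5F1, L1TD1, TERT and SOX2 crossed it in some samples only, and NANOG and TDGF1 crossed it in none. Among the core regulators, then, neither NANOG nor SOX2 had more than 6 counts in any library. The plot of counts by gene and sample shows these levels.

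**Figure D1:**
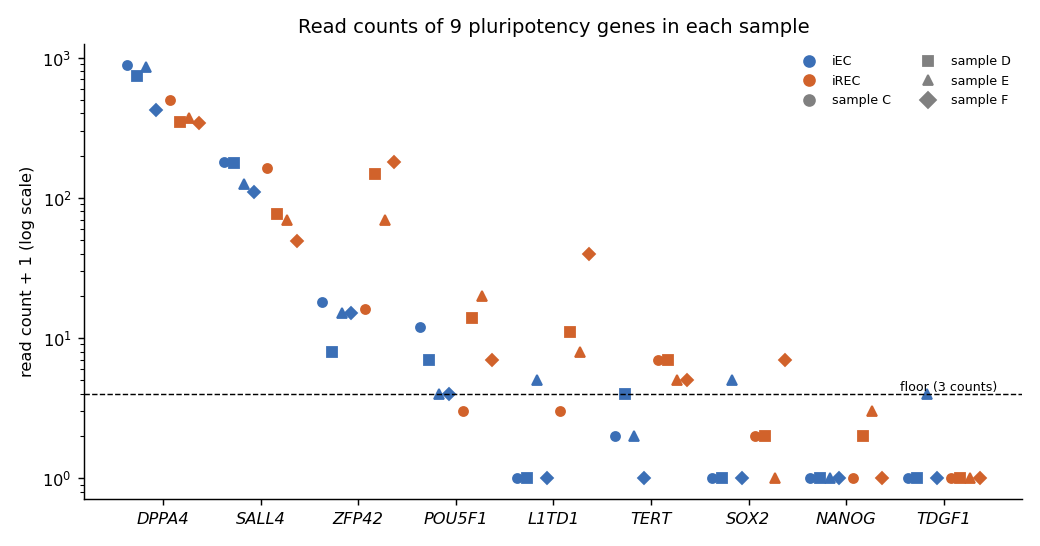
Read count plus 1 (log scale) of the 9 genes in each of the 8 samples; colour gives the group, symbol the sample letter, and the dashed line the floor of 3 counts. DPPA4, SALL4 and ZFP42 lie above the line in all samples, and NANOG and TDGF1 never do.

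Only these 3 genes passed the filter on low counts, and of them ZFP42 was called higher and DPPA4 lower in iREC, while SALL4 was not called. Over all 15330 tested genes, 25.0% were called by edgeR at an adjusted p under 0.05, 13.2% higher and 11.7% lower in iREC. ZFP42 met the filter through iREC, with 3 of 4 iEC samples over its minimum of 0.645 CPM, so that it could enter the test only on the side where it is high. The median log2 fold change of all tested genes was 0.02. None of the 3 (0 of 3) had groups whose CPM values did not overlap, against 29.1% of tested genes. The 6 genes below the filter are described by their counts. Gene positions are on GRCh38, as in the deposited table and GENCODE release 29. Without the filter, edgeR called 12.8% of 30386 genes and 3 of the 9 members, L1TD1 being the one added.

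Of the core regulators, POU5F1 (chromosome 6, 31164337 to 31180731, minus strand) had 11, 6, 3 and 3 counts in iEC and 2, 13, 19 and 6 in iREC. It crossed the floor in 2 of 4 iEC samples and 3 of 4 iREC samples, and the groups overlapped. Its summed counts were 23 and 40, a ratio of iREC to iEC of 1.77 per scaled library (95% exact conditional interval 1.04 to 3.10, counting error only), and the fit without a filter did not call it (edgeR estimate 0.77 ± 0.72 log2 units with its SE, adjusted p 0.516). These few reads cannot be assigned to POU5F1 with certainty. Of its transcripts' distinct 50-base stretches, 37.4% also occur in transcripts of other genes, 16.4% in POU5F1B and 14.2% in POU5F1P3. POU5F1B itself had 3 to 17 counts per sample and POU5F1P3 0 to 8, with the highest value of both in iREC E, the sample where POU5F1 was highest too. TCF19 on the opposite strand shares 248 exon bases with POU5F1 and had 185 to 1237 counts. How the counting treated shared and opposite-strand reads is not given in the sources used here.

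NANOG (chromosome 12, 7787794 to 7799141, plus strand) had 0 counts in all 4 iEC samples and in iREC C and F, 1 in iREC D and 2 in iREC E. A count of 0 allows up to 3 counts, 0.178 to 0.215 CPM. Since both groups stayed under the floor, no fold is given. NANOGP8, a processed copy that shares 12.3% of the NANOG stretches, had 2 counts in iREC F and 0 elsewhere.

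SOX2 (chromosome 3, 181711924 to 181714436, plus strand), a single-exon gene, had 4 counts in iEC E and 0 in the other iEC samples. In iREC it had 1, 1, 0 and 6 counts in C, D, E and F. The ratio of summed counts was 2.04 with an interval of 0.546 to 9.24, and the fit without a filter did not call it (edgeR adjusted p 0.699). The gene lies inside SOX2-OT on the same strand, with no shared exon base, and SOX2-OT also had its highest count, 6, in iREC F. SOX2 is also a gene of neural progenitors, and the neural markers PAX6, SOX1 and OTX2 were at most 2, 5 and 3 counts in any sample. At this depth a difference in SOX2 was not detectable.

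SALL4 (ENSG00000101115, chromosome 20, 51782331 to 51802520, minus strand, 7 exon blocks), which in embryonic stem cells acts beside POU5F1, had 180, 177, 125 and 110 counts in iEC and 163, 76, 69 and 48 in iREC. iREC C at 10.7 CPM lay within the iEC range of 7.40 to 11.7 CPM, while D, E and F of iREC were below that range, at 3.14 to 5.42 CPM. The iEC samples averaged 9.54 ± 2.22 CPM and the iREC samples 5.86 ± 3.33 CPM (SD, n = 4; edgeR estimate -0.70 ± 0.38 log2 units with its SE, adjusted p 0.207). Without iREC C, SALL4 was called lower (edgeR estimate -1.17 log2 units, adjusted p 0.0242). That was the only 1 of the 8 fits leaving out a sample that called SALL4. With all samples, 0 of 9 other settings called it.

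DPPA4 (ENSG00000121570, chromosome 3, 109326141 to 109337572, minus strand, 7 exon blocks) was the most abundant member in both groups. Its counts in iEC were 891, 742, 853 and 424 in C, D, E and F, and in iREC 497, 346, 372 and 343. The level averaged 46.4 ± 11.7 CPM over iEC and 25.6 ± 4.72 CPM in iREC (SD, n = 4). DPPA4 fell by 0.86 on the log2 scale, with an SE of 0.21 (edgeR adjusted p 0.0166). The groups overlapped, since iEC F at 30.4 CPM lay below iREC C at 32.5 CPM. The call was lost without iREC D (edgeR adjusted p 0.0518) and without iREC E (0.0501), and held in the other 6 fits that left out a sample. DPPA2, the neighbouring gene whose protein pairs with DPPA4, had at most 3 counts in any sample.

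ZFP42 (ENSG00000179059, chromosome 4, 187995771 to 188005050, plus strand, 4 exon blocks) encodes a zinc finger protein whose RNA is a classical marker of undifferentiated stem cells. Its counts in iEC were 17, 7, 14 and 14 in samples C, D, E and F. In iREC they were 15, 148, 69 and 178. Samples D, E and F of iREC each stood above every iEC sample, while iREC C lay among them, so the groups overlapped. The mean level was 0.845 ± 0.291 CPM over iEC and 6.85 ± 5.11 CPM in iREC (SD, n = 4), which edgeR estimated as 3.01 ± 0.70 log2 units (SE) at an adjusted p of 0.0129. ZFP42 stayed called by edgeR in each of the 8 fits that left out a sample (adjusted p 0.00156 to 0.0411), and without iREC C its log2 fold change was 3.37. limma-voom did not call it (log2 fold change 2.52, adjusted p 0.0936). The iREC samples thus differed widely among themselves, from 0.982 CPM in C to 11.7 CPM in F. For SALL4, DPPA4 and ZFP42 alike, iREC C lay within the range of the iEC samples.

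**Figure D2:**
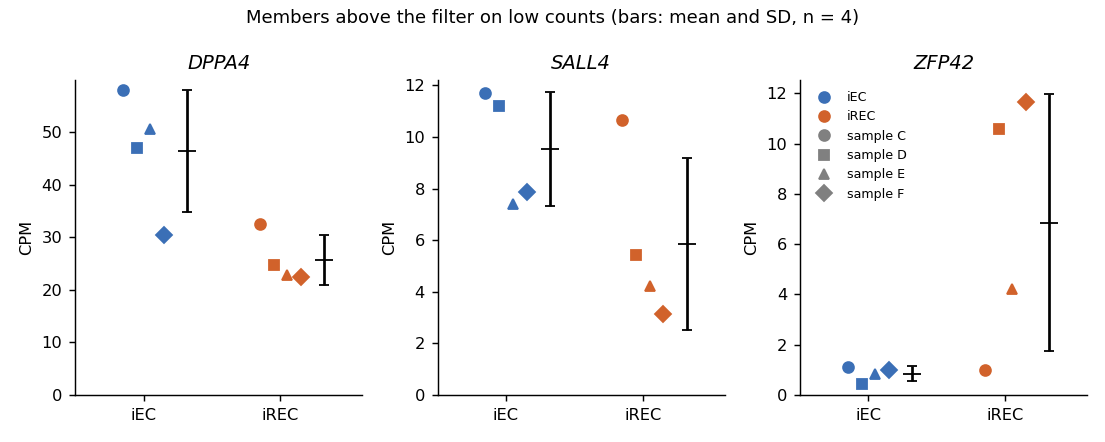
Level in CPM of DPPA4, SALL4 and ZFP42 in each sample, iEC in blue and iREC in orange, with the mean and SD of each group (n = 4) as bars beside the points. iREC C lies within the range of iEC for all 3 genes, and ZFP42 reaches 11.7 CPM in iREC F.

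L1TD1 (ENSG00000240563, chromosome 1, 62194831 to 62212328, plus strand, 4 exon blocks), an RNA-binding protein found with LIN28A in embryonic stem cells, had 0, 0, 4 and 0 counts in iEC and 2, 10, 7 and 39 in iREC. Sample F held 39 of the 58 iREC counts. The ratio of summed counts was 14.8 (interval 5.47 to 56.0, counting error only). Fitted without a filter, L1TD1 rose by an estimated 3.76 ± 1.15 log2 units (SE), at an edgeR adjusted p of 0.0453. The estimate and its SE depend on the prior count because iEC is near 0. That call was lost in 5 of 8 fits that left out a sample, among them the fit without iREC F (edgeR estimate 2.59 log2 units, adjusted p 0.186). Without iEC E the log2 fold change was 6.87 (edgeR adjusted p 0.0228). In the authors' deposited table L1TD1 has an adjusted p of 0.0163.

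TDGF1 (chromosome 3, 46574534 to 46582463, plus strand) had 3 counts in iEC E and 0 in the other 7 samples. It shares 110 exon bases with LRRC2 on the opposite strand, and LRRC2 was highest in the same sample, at 75 counts against 12 to 25 in the other iEC samples and 2 to 7 in iREC. Whether the TDGF1 reads belong to LRRC2 was not tested. Some 34.0% of the TDGF1 stretches also occur in its processed copy TDGF1P3, which has no listed row.

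TERT (ENSG00000164362, chromosome 5, 1253147 to 1295069, minus strand, 16 exon blocks) had 1, 3, 1 and 0 counts in iEC and 6, 6, 4 and 4 in iREC. It was the only member whose groups did not overlap, as was the case for 17.7% of all listed genes. The ratio of summed counts, 20 against 5, was 4.07 (interval 1.48 to 13.9, counting error only), and the fit without a filter did not call it (edgeR estimate 1.94 ± 0.92 log2 units with its SE, adjusted p 0.212). No 50-base stretch of its transcripts (0%) occurs in another gene's transcript. All 8 counts lie near the floor, so the level of TERT is known only to within a few reads.

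Levels can be compared between genes only per length, for which the authors' FPKM (normalized counts over gene length and over 1 library size, 15383181, common to all samples) were used. In iEC, DPPA4 led at 9.19 ± 2.16 FPKM (SD, n = 4), higher than 73.0% of 16828 protein-coding genes, followed by SALL4 at 1.64 ± 0.357 FPKM, ZFP42 at 0.316 ± 0.111 FPKM and POU5F1 at 0.127 ± 0.0819 FPKM. The ranges of DPPA4, SALL4 and ZFP42 did not overlap, while those of ZFP42 and POU5F1 did. In iREC the order was DPPA4 at 5.04 ± 0.925 FPKM, higher than 60.0% of protein-coding genes, ZFP42 at 2.54 ± 1.90 FPKM, SALL4 at 0.997 ± 0.567 FPKM, L1TD1 at 0.246 ± 0.282 FPKM and POU5F1 at 0.221 ± 0.159 FPKM. There the lowest DPPA4 sample (4.44 FPKM) was just above the highest ZFP42 sample (4.36 FPKM), and ZFP42, SALL4, L1TD1 and POU5F1 each overlapped the next in order. The other 4 members were at or below 0.0708 FPKM on average in both groups.

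Within iREC, ZFP42 and L1TD1 were both lowest in C and highest in F, while SALL4 and DPPA4 were highest in C and lowest in F. LIN28A, an RNA-binding protein of stem and early fetal cells, followed ZFP42, with 314, 2057, 880 and 7352 counts in iREC C, D, E and F. By CPM, F was also the highest iREC sample for 7 of 8 epithelial markers, CLDN4 being the exception, and for 9 of 9 mesenchymal markers. C was the lowest for 5 of the 8 and 5 of the 9, while EPCAM, KRT18, COL1A2, PDGFRA, ACTA2 and TAGLN were lowest in E. Among those with C lowest and F highest, CDH1, the epithelial cadherin, had 0, 72, 19 and 1246 counts, KRT7 8, 699, 255 and 1058, and the stromal proteoglycan gene LUM 30, 867, 227 and 6544. In iEC, LIN28A ran from 118 to 498 counts, CDH1 from 0 to 1, KRT7 from 0 to 43 and LUM from 3 to 100. The part of these markers in the ZFP42 and L1TD1 values was not tested. The ZFP42 call held without iREC F, where edgeR estimated 2.62 log2 units at an adjusted p of 0.0238. In iREC C, D and E, ZFP42, CDH1, KRT7 and LUM were all lowest in C and highest in D. That fit therefore cannot set ZFP42 apart from these markers.

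**Figure D3:**
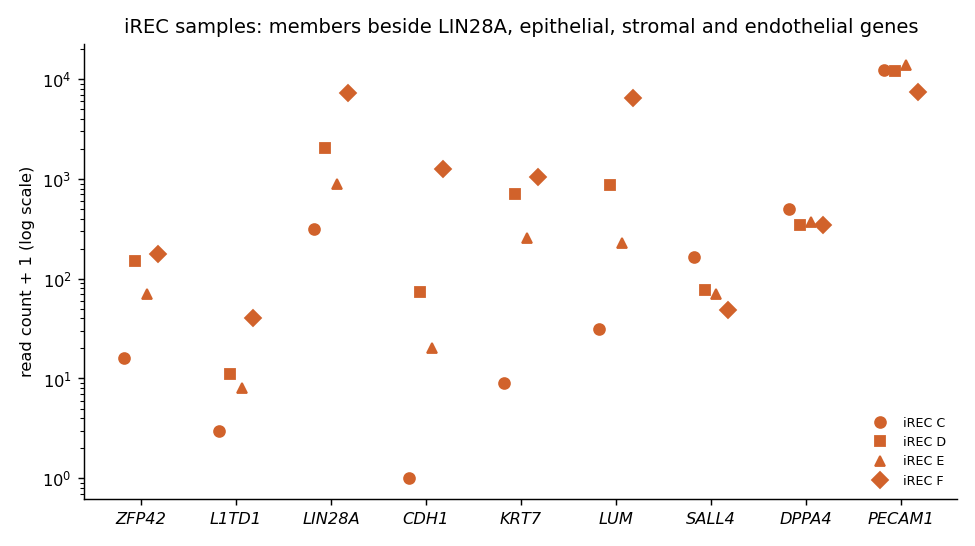
Read count plus 1 (log scale) in the 4 iREC samples for members (ZFP42, L1TD1, SALL4, DPPA4), LIN28A, epithelial (CDH1, KRT7), stromal (LUM) and endothelial (PECAM1) genes. iREC C is lowest and F highest for ZFP42, L1TD1, LIN28A, CDH1, KRT7 and LUM, whereas SALL4 and DPPA4 are highest in C and lowest in F.

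The tested genes most like each tested member were found by the Pearson correlation of log2 CPM over the 8 samples, among 12623 protein-coding genes. The coefficients are descriptions, since the 8 points share 1 scaling and the split into groups. For ZFP42 they were ESRP2 (r = 0.985), a splicing regulator of epithelial cells, GABBR2 (0.980) and BICC1 (0.980). ESRP2 was 0.379 to 0.715 CPM in iEC, 0.589 CPM in iREC C and 2.44 to 5.63 CPM in the other iREC samples. For DPPA4 they were DNM1L (r = 0.994), TAF1B (0.993) and RBM28 (0.989). For SALL4 they were POU6F1 (r = 0.989), GAP43 (0.973) and BCL10 (0.961). GAP43, a growth-associated protein best known from neurons, was 49.6 to 102 CPM in iEC, 68.1 CPM in iREC C and 4.78 to 11 CPM in iREC D, E and F.

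Among 35 further genes of the pluripotency network, 26 were listed and 12 tested, of which 5 were called, all higher in iREC, where 13.2% of all tested genes were called higher. GDF3, USP44 and PROM1, like KLF4, met the filter through iREC alone, with at most 2 of 4 iEC samples over its minimum. They entered the test only on the side where they are high, and the count therefore supports no direction for the list. GDF3, a TGF-beta family ligand, had 0, 1, 0 and 0 counts in iEC and 88, 62, 125 and 43 in iREC, so the iEC side rests on a single read (ratio 324, interval 57.7 to 12800, counting error only; edgeR adjusted p 0.00011). Without iEC D, which holds that read, GDF3 had 0 counts in iEC. PROM1, which encodes the surface protein CD133 found on several progenitor types, rose from 0.538 ± 0.271 to 16.8 ± 18.4 CPM (SD, n = 4; edgeR estimate 4.93 ± 0.85 log2 units with its SE, adjusted p 0.00287), and iREC F was highest. Without iREC F the estimate for PROM1 was 3.82 log2 units (edgeR adjusted p 0.00124). USP44, a deubiquitinase, rose from 0.504 ± 0.229 CPM to a mean of 1.76 ± 0.192 CPM (edgeR adjusted p 0.00964). LIN28A was called at an edgeR adjusted p of 0.0242, with 16.6 ± 10.9 CPM in iEC and 176 ± 211 CPM in iREC (SD, n = 4), although iREC C lay between iEC samples. Its call did not hold under limma-voom (adjusted p 0.0834), nor in the fits that left out iEC D, E or F, and without iREC F the LIN28A estimate went from 3.4 to 2.15 log2 units (edgeR adjusted p 0.0393). ALPL was called at an edgeR adjusted p of 0.0450, and that call was lost in 6 of those 8 fits. DNMT3B, MYC, KLF4, TRIM71, PHC1, PODXL and EPCAM were tested and not called. PRDM14, DPPA3, DPPA5, UTF1, LEFTY2 and FOXD3 are among the 9 genes with no listed row.

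Of 19 listed paralogs and pseudogenes, 5 were tested and 1 was called, where 25.0% of all tested genes were called. SALL2, a paralog of SALL4, rose from 5.16 ± 1.10 to 14.8 ± 8.06 CPM (SD, n = 4; edgeR estimate 1.52 ± 0.36 log2 units with its SE, adjusted p 0.0131), and its groups did not overlap. YY1, from which ZFP42 arose as a copy, averaged 135 CPM in the iEC samples and 132 CPM in the iREC samples (edgeR estimate -0.03 log2 units, adjusted p 0.827). The list's median log2 fold change was -0.03 over the 5.

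The tested telomerase and shelterin genes were above the floor in every sample, while TERT stayed near it. TEN1, which was not tested, had at most 4 counts in any sample. Of 16 telomerase and shelterin genes, 14 were tested and 2 called, both lower in iREC (median log2 fold change -0.30). Over all tested genes, 25.0% were called and 11.7% were called lower, so the count is not read as a result about the list. STN1, a subunit of the CST complex that helps finish telomere ends, fell from 35.7 ± 7.64 to 12.4 ± 1.18 CPM (SD, n = 4; edgeR estimate -1.52 ± 0.18 log2 units with its SE, adjusted p 0.00039). NOP10, a protein of the telomerase RNA particle, fell from 160.4 ± 44.5 to 83.2 ± 16.2 CPM (edgeR estimate -0.95 ± 0.22 log2 units with its SE, adjusted p 0.0118). DKC1, dyskerin, was 112 ± 17.5 and 91.6 ± 13.7 CPM and was not called (edgeR adjusted p 0.198). TERC, the telomerase RNA, had 0 to 6 counts; it lacks a poly-A tail, and the libraries were selected with poly-T beads.

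In the pathway of TDGF1, 7 of 12 listed Nodal and Cripto genes were tested. Of these, and beside 13.2% of all tested genes called higher in iREC, 2 were called, both higher. These were GDF3, which met the filter through iREC alone, and the receptor ACVR1B, which averaged 16.6 ± 0.935 CPM in iEC and rose to 29.9 ± 4.54 CPM (SD, n = 4) at an edgeR adjusted p of 0.00302. NODAL had at most 5 counts in a sample. CFC1, the paralog of TDGF1 that also serves as a Nodal co-receptor, had 6, 3, 8 and 5 counts in iREC and 0 in each iEC sample, but was below the filter.

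**Figure D4:**
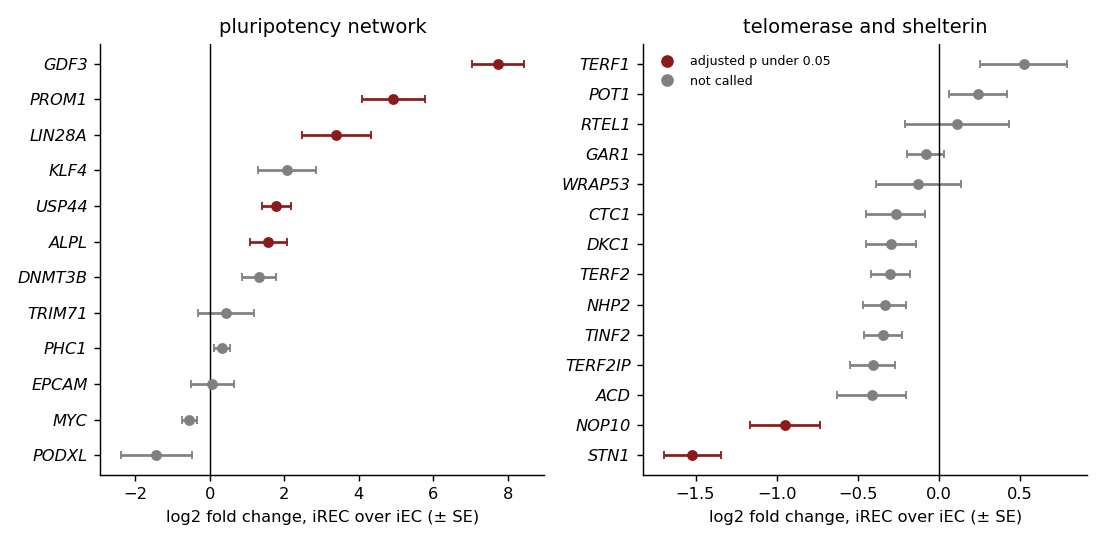
log2 fold change of iREC over iEC with its SE for the tested genes of the pluripotency network (left) and of the telomerase and shelterin list (right); dark red marks an edgeR adjusted p under 0.05. The 5 called network genes lie to the right of 0, and the 2 called telomere genes, STN1 and NOP10, to the left.

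Markers of other cell types that can express some of the members were also read. Of the germ cell markers, DDX4, DAZL and DND1 had no listed row, KIT was tested and not called, and PRDM1 fell in iREC (edgeR adjusted p 0.000316). No primitive streak marker (0 of 3 listed) passed the filter, and none had more than 11 counts in a sample. Over all tested genes, 13.2% were called higher in iREC and 11.7% lower, the shares to set beside the counts that follow. Of the 7 listed neural markers, 3 were tested and all were called, NES and TUBB3 lower and STMN2 higher. The 10 endothelial markers were all tested, with 2 called higher and 4 lower. Of 6 tested epithelial markers KRT7 was called, and of 7 tested mesenchymal markers TAGLN and LUM, each higher in iREC. The KRT7 call was lost under limma-voom (adjusted p 0.252) and without iEC C, D or E or iREC D. The LUM call was lost under limma-voom (adjusted p 0.267) and without iEC C, D or E or iREC D or F, and without iREC F its estimate went from 5.80 to 3.50 log2 units (edgeR adjusted p 0.0739). Of the 3 tested markers of retinal progenitors and pigment epithelium, BEST1 was called, higher in iREC. STMN2, LUM and BEST1 met the filter through iREC alone, and so entered the test only on the side where they are high. KRT7 had 2 iEC and 3 iREC samples over the filter's minimum, so it too needed its high iREC samples to enter.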

How the data were processed

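RNA sequencing counts were available for 4 iEC and 4 iREC samples of WTC-TJP1 cells. Per the labels' protocols, messenger RNA was selected with poly-T beads and dUTP was used in second-strand synthesis. The submitters' processing notes name fastp, HISAT2 2.0.5 and the hg38 build; the counting program and its use of strand are not given in the sources used here. The authors deposited 1 table of 30386 genes with raw counts, normalized signal (counts over the size factor of their sample), FPKM, log2 fold changes and p-values. All 30386 gene starts and ends matched GENCODE release 29 (GRCh38). No listed gene totals under 2 counts.

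Computed here: genes were kept with filterByExpr in edgeR 4.0.16, which left 15330, scaled by TMM and tested for the group term with the quasi-likelihood method of edgeR in R 4.3.3. Benjamini-Hochberg adjustment ran over every tested gene, and calls needed an adjusted p under 0.05. CPM values use TMM-scaled library sizes (log2 CPM with 2 as prior count). A member counted as detected in a sample above a floor of 3 counts. Nothing in the labels says whether the samples came from separate differentiations, so p-values measure the spread between these samples. The fits were tested on simulated data. The settings varied were the scaling (size factors of DESeq2, upper quartile, or library size alone), the absence of a filter, a filter at 1 CPM in all samples of a group, DESeq2 1.42.0, limma-voom (limma 3.58.1), the replicate letter as a block, protein-coding genes only, each sample left out, and other detection floors. Leaving out each sample without a filter was added after the data were seen. The 9 members, the gene lists and the tests were chosen with earlier results of these data known. The naming rule took all 9 members, up to 3 called genes per direction and list (pluripotency network, paralogs and pseudogenes, telomerase and shelterin, Nodal and Cripto pathway), listed pseudogenes and overlapping genes, and the 3 tested protein-coding genes of at least 1 CPM most correlated with each tested member. LIN28A, ALPL and the marker genes named lie outside this rule and were picked with their values in view. Promoter sequences came from RefSeq (GRCh38.p14).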

Additional observations from a re-analysis of the deposited data

Results flagged for a closer look

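Each member's 4 values in a group were screened with Dixon's test at its 95% critical value, wherever the group had any reads. Of 16 such groups, 3 held a value that stood apart. The test picks out about 1 in 20 groups by chance for continuous values, but a lone read count beside 3 zeros passes it whatever its size, so that rate does not apply here. All 3 values were in iEC E, the sample with the highest total count, 16971865. SOX2 was 0.237 CPM there (4 counts) and 0 in the other iEC samples. L1TD1 was likewise 0.237 CPM (4 counts) there and 0 elsewhere in iEC. TDGF1 was 0.178 CPM (3 counts) there and 0 elsewhere in iEC. Each of these values rests on at most 4 reads.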

How the results depend on the processing

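With all samples, the count of members called was 2 of 3 tested. It was 1 with the filter at 1 CPM (of 2 tested, ZFP42 being left out), 1 under limma-voom, 1 under the replicate block and 3 without a filter (of 9 tested); over the fits that left out a sample it ran from 1 to 3. The count over all genes went from 3829 to 4664 with DESeq2 and to 2660 without iREC D. With the replicate block it was 3334, and ZFP42, LIN28A and ALPL lost their calls (edgeR adjusted p 0.0548, 0.114 and 0.0677). KRT7, LUM and DPPA4 were among those that kept theirs (edgeR adjusted p 0.00306, 0.00671 and 0.0133). The block lowered the SE of KRT7 from 1.38 to 0.65 and that of LUM from 1.69 to 0.82. It raised the SE of ZFP42 from 0.70 to 0.77 and that of LIN28A from 0.91 to 1.06. The letters are not shown to pair the samples: same-lettered deviations correlated at 0.168, -0.0794, 0.0291 and 0.25 for C, D, E and F, and only C and F matched best with their own letter. The members detected anywhere, 7 at a floor of 3 counts, were 9 at a floor of 0 and 5 at 9 counts or 0.5 CPM; those detected in all samples, 3, were 4, 2 and 2. SOX2 changed sign without a filter and without iREC F, to a log2 fold change of -0.41. DPPA4 and SALL4 were negative and ZFP42 positive in each fit that tested them. Depth limits POU5F1, NANOG, SOX2, TDGF1 and TERT most, all at 19 counts or fewer in any sample.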

Other observations

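Among the marker lists of other cell types, TTR and PTPRC had reads in every iREC sample and few or none in iEC. Both met the filter through iREC alone, and so entered the test only on the side where they are high. TTR, a transport protein of liver, choroid plexus and retinal pigment epithelium, had 3, 0, 0 and 0 counts in iEC and 1116, 460, 680 and 229 in iREC (edgeR adjusted p 9.6e-05). Of the other endoderm markers, FOXA2 had at most 3 counts and AFP at most 18 in any sample. PTPRC, which encodes the leukocyte antigen CD45, had 42, 17, 13 and 27 counts in iREC and 0 in iEC (edgeR adjusted p 0.00243), while the blood markers SPI1, GATA1 and CD68 had at most 3 counts in any sample. CD34, shared by blood progenitors and endothelium, was called higher in iREC and RUNX1 lower.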
